A study of Mus musculus with 2 samples.

Results

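The genes described here are 9 members of phosphoinositide 3-kinase (PI3K) signalling, measured in mouse leukemic stem cells (LSCs) of BCR-ABL-driven chronic myeloid leukemia (CML). They encode 4 catalytic subunits (Pik3ca, Pik3cb, Pik3cd and Pik3cg), 3 regulatory subunits (Pik3r1, Pik3r5 and Pik3r6) and 2 lipid phosphatases (Inpp5d and Inppl1). They were selected by symbol and all 9 were found among the 23284 gene symbols that both libraries list. The comparison asked how the RNA levels of the enzymes that make and remove one lipid messenger differ between LSCs with and without STAP-1, an adaptor protein of hematopoietic cells. Donor LSK cells (lineage marker-negative, Sca-1+ and c-Kit high) came from C57BL/6J mice (Ly5.2) aged 8 to 14 weeks that were either wild type (WT) or STAP-1 knockout (KO), the latter by targeted disruption of the gene. Cells of both genotypes were infected with a retrovirus (pMSCV-ires-GFP) carrying human BCR-ABL and green fluorescent protein (GFP). They were transplanted, together with Ly5.1 bone marrow cells, into lethally irradiated C57BL/6SJL (Ly5.1) recipients. GFP+ CD45.2+ LSK cells were sorted at day 11 after the first transplantation and used for RNA-seq, with 1 library for WT and 1 library for STAP-1 KO. BCR-ABL was expressed from a viral vector in this model, and the number of recipient mice behind a library is not given in the sources used here. With no replicate of either genotype, no difference has a replicate check, no p-value is given, and the genotype cannot be told apart from differences in animals, cell sorting or RNA amplification. In such bulk samples, fewer cells of a type and less RNA per cell also cannot be told apart.

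PI3K enzymes phosphorylate the membrane lipid PIP2 to PIP3, which recruits AKT and other proteins with a PIP3-binding domain to the membrane. Class IA enzymes pair a catalytic subunit (p110α from Pik3ca, p110β from Pik3cb or p110δ from Pik3cd) with a regulatory subunit such as the p85 products of Pik3r1, and act downstream of tyrosine kinases such as BCR-ABL. The class IB enzyme pairs p110γ (Pik3cg) with p101 (Pik3r5) or p84 (Pik3r6) and acts downstream of G protein-coupled receptors. The phosphatases SHIP1 (Inpp5d) and SHIP2 (Inppl1) convert PIP3 to another phosphoinositide, PI(3,4)P2. p110δ, p110γ and SHIP1 are known as the forms enriched in leukocytes, while p110α, p110β, p85 and SHIP2 are found in most tissues.

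The start regions of these genes differ in base composition. RefSeq (GRCm38.p6) gave promoter windows for 8 of the 9 members, all except Pik3r6, and the 250 bases before the most upstream start are described. The 4 windows shown differ in their CpG number and are from a leukocyte-enriched phosphatase (Inpp5d) and catalytic subunit (Pik3cg), the catalytic subunit with the longest transcript (Pik3ca), and the regulatory subunit whose level was nearly equal in both libraries (Pik3r5). Each is printed 5′ to 3′ on the strand of its gene, with capitals marking every CpG dinucleotide.
Inpp5d (SHIP1), chr1:87620062-87620311, + strand: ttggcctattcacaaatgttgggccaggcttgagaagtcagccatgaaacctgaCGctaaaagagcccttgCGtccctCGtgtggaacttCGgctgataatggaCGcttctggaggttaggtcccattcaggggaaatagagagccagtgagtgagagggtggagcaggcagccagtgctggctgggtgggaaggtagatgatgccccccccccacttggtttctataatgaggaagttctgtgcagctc
Pik3cg (p110γ), chr12:32208660-32208909, − strand: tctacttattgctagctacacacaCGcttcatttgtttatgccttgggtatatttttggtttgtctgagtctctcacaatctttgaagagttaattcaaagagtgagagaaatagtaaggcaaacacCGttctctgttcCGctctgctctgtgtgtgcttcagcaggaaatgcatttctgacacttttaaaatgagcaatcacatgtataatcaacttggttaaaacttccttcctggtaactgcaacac
Pik3ca (p110α), chr3:32396815-32397064, + strand: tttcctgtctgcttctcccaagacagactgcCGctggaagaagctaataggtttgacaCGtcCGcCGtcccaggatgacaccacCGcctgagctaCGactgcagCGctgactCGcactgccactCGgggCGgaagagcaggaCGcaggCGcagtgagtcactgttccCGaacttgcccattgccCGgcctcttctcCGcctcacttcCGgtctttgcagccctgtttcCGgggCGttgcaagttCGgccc
Pik3r5 (p101), chr11:68431875-68432124, + strand: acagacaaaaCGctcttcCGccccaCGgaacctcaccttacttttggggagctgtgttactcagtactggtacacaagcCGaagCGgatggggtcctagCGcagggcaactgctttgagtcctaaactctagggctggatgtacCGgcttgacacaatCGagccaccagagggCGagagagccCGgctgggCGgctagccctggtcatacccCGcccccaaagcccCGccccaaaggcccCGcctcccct
The Pik3cg window had 3 CpG and 38.8% G or C bases, and the Inpp5d window had 5 CpG and 54.4%. The Pik3r5 window had 14 CpG and the Pik3ca window 19, both at 61.6% G or C. The other matched members had 6 CpG for Pik3cd, 11 for Inppl1, 30 for Pik3r1 and 32 for Pik3cb, so that the genes called leukocyte-enriched above had the fewest at the most upstream start. This did not hold for all annotated starts, since the windows of 2 further Pik3cd starts had 19 and 4 CpG and that of a further Pik3r1 start had 6. Over all 32851 mouse windows of this length the median was 6 CpG, 49.6% of windows had 5 or fewer and 29.4% had 14 or more. Motifs of 5 factor families were searched on both strands in the windows of every annotated start, and no word holds another. The word for ETS factors of the PU.1 type was GAGGAAG. The word for GATA factors was AGATAA. RUNX factors were represented by TGTGGT. STAT factors, which bind a palindrome, were represented by TTCNNNGAA. The FOXO word was GTAAACA. Inpp5d held GAGGAAG 20 bases before its start, a word found in 10.6% of all windows. A second, downstream Pik3cg start held that motif at 190 and 152 bases and GTAAACA at 92 bases before it, the latter a word found in 3.2% of all windows. The GATA, RUNX and STAT words, found in 3281, 4614 and 2306 of the 32851 windows, were in none of the 13 member windows. Only these exact words were searched, and the Inpp5d window holds tgataa, which differs from AGATAA in its leading letter only. With 13 windows, the absence of a word says little. A match describes letters in a window and not binding of a factor.

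Levels are the deposited FPKM values (fragments mapped to a gene, divided by transcript length and library size), which can be compared between genes. Ratios of single genes are log2((STAP-1 KO + 0.1)/(WT + 0.1)), and a gene is called lower or higher at a ratio of at least 2-fold without pseudocount, with at least 0.1 FPKM in both libraries. The effective depth, read from the step size of low FPKM values, was 7480000 reads for WT and 10480000 for STAP-1 KO. The targeted gene, Stap1 (chromosome 5, 86071746-86106125), had 62.0 FPKM in WT and 0.309 FPKM in STAP-1 KO, or about 1456 and 10 reads. Of the genes of the sorting markers, Kit had 468 and 30.1 FPKM and Ly6a (Sca-1) 285 and 106 FPKM. Both were at least 2-fold lower in STAP-1 KO, although cells of both genotypes had been sorted on c-Kit and Sca-1. Cd34, a progenitor marker that was not used in the sort, had 281 and 194 FPKM.

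Of the 9 members, 7 were at least 2-fold lower in STAP-1 KO than in WT and 0 were higher, with a median log2 ratio of -1.22. The 7 were Pik3cb, Pik3cd, Pik3cg, Pik3r1, Pik3r6, Inpp5d and Inppl1, whereas Pik3ca and Pik3r5 did not reach the cut-off. The summed level of the 9 genes was 328 FPKM in WT and 77.0 FPKM in STAP-1 KO, 4.27-fold lower. Among all 12507 genes compared, 22.9% were at least 2-fold lower and 12.3% at least 2-fold higher, and for the 10974 genes that averaged 1 FPKM or more the median log2 ratio was -0.04. At other cut-offs 8 members were at least 1.5-fold lower, against 32.8% of all genes, and 4 were at least 4-fold lower, against 8.56%. Long transcripts were lower more often in this pair of libraries. Among the 5785 genes compared whose longest transcript was between 3237 and 8917 bases, the range of the members, 29.6% were lower and 6.85% higher. The order of the 9 levels was the same in both libraries, with Pik3cd highest, followed by Inpp5d, Pik3cg, Pik3r1, Pik3cb, Pik3ca, Pik3r5, Pik3r6 and Inppl1. Within WT, Pik3cb and Pik3ca (9.79 and 8.56 FPKM) were close neighbours, as were Pik3r5 and Pik3r6 (2.70 and 2.42 FPKM), and without replicates their order has no error estimate.

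**Figure D1:**
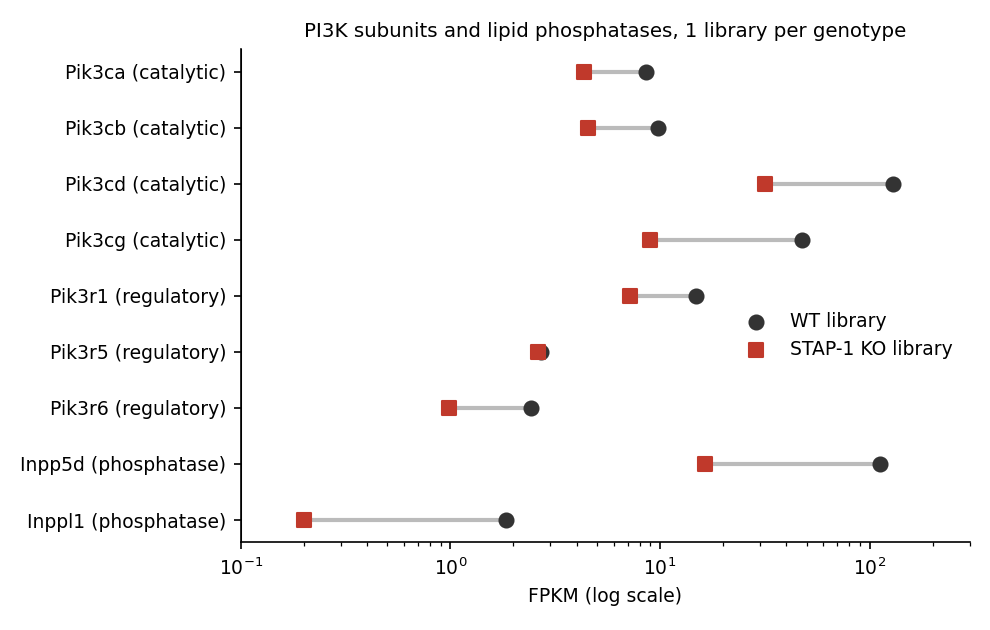
FPKM (log scale) of the 9 members in the WT library (black circles) and the STAP-1 KO library (red squares), 1 library per genotype, with a grey line joining the values of each gene. Inpp5d, Pik3cg and Pik3cd have long lines at high levels, from 112 to 16.4 FPKM in Inpp5d, and the Pik3r5 points at 2.70 and 2.62 FPKM nearly coincide.

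Among the catalytic subunits, the leukocyte-enriched genes had both the higher levels and the larger differences. Pik3cd, on chromosome 4 (149649168-149702571, − strand), had 129 FPKM in WT and 31.8 FPKM in STAP-1 KO, 4.05-fold lower. Pik3cg, on chromosome 12 (32173473-32208659, − strand), had 47.5 and 8.96 FPKM, 5.30-fold lower. Both were far from the cut-off. Pik3cb, on chromosome 9 (99036654-99140621, − strand), had 9.79 and 4.54 FPKM, 2.15-fold lower. Pik3ca, on chromosome 3 (32397671-32468486, + strand), had 8.56 and 4.33 FPKM, 1.98-fold lower. These widely expressed genes thus lay just inside and just outside the cut-off, with similar log2 ratios of -1.09 and -0.97. The 4 genes together had 194.5 FPKM in WT and 49.6 FPKM in STAP-1 KO, 3.92-fold lower, with a median log2 ratio of -1.55.

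Within a library, the share of one gene among the catalytic genes does not depend on how the libraries were scaled. It can still vary with transcript length, which differs between these genes. Pik3cd made up 66.2% of the summed catalytic FPKM in WT and 64.1% in STAP-1 KO, so that p110δ RNA led in both. The share of Pik3cg was 24.4% in WT and 18.1% in STAP-1 KO. The shares of Pik3cb (5.03% and 9.15%) and Pik3ca (4.40% and 8.73%) were larger in STAP-1 KO. Accordingly, Pik3cd exceeded Pik3ca 15.0-fold in WT and 7.34-fold in STAP-1 KO, whereas the ratio of Pik3cb to Pik3ca was 1.14 and 1.05. Among the class IA genes alone, Pik3cd had 87.5% of the FPKM in WT and 78.2% in STAP-1 KO.

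**Figure D2:**
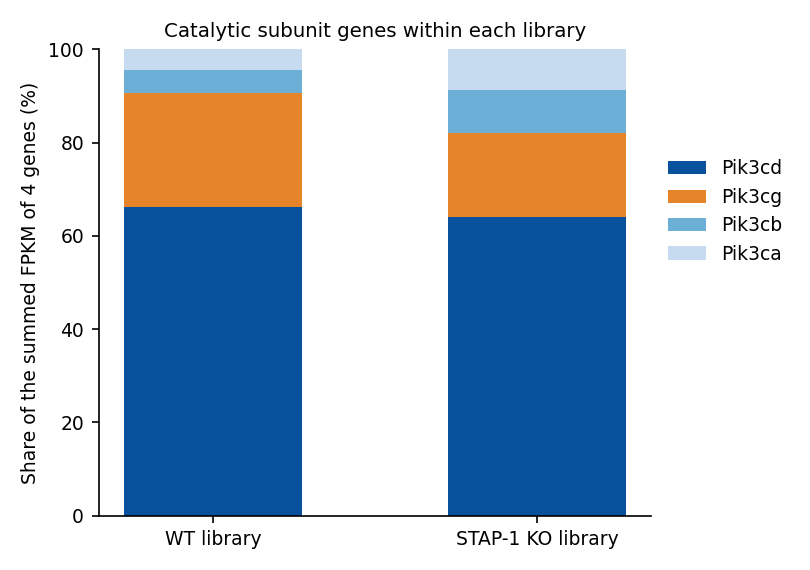
Stacked bars of the share (%) of each catalytic subunit gene in the summed FPKM of the 4 genes, for the WT and the STAP-1 KO library. Pik3cd takes 66.2% and 64.1%, the Pik3cg segment is smaller in STAP-1 KO, and the Pik3cb and Pik3ca segments are larger.

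The regulatory subunits had a smaller summed difference than the catalytic ones, although single genes of both roles overlapped. Pik3r1, on chromosome 13 (101680563-101768217, − strand), which gives rise to p85α and shorter forms, had 14.8 FPKM in WT and 7.15 FPKM in STAP-1 KO, 2.07-fold lower. This ratio was close to those of Pik3ca and Pik3cb, and the summed class IA catalytic FPKM exceeded Pik3r1 by 9.92-fold in WT and 5.69-fold in STAP-1 KO. The class IB partners Pik3r5 (68432121-68497849) and Pik3r6 (68503019-68552698) lie side by side on the + strand of chromosome 11, 5169 bases apart, with 0 listed genes between them. Pik3r5 had 2.70 and 2.62 FPKM, a ratio of 1.03. Pik3r6 had 2.42 and 0.981 FPKM, 2.47-fold lower. These neighbours therefore had nearly equal levels in WT, and Pik3r5 was 2.67-fold above Pik3r6 in STAP-1 KO. The FPKM of Pik3cg was 9.27 times the sum of its partners Pik3r5 and Pik3r6 in WT and 2.49 times in STAP-1 KO. The 3 regulatory genes together had 19.9 and 10.75 FPKM, 1.85-fold lower, with a median log2 ratio of -1.04.

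The phosphatase genes had the most negative log2 ratios of the 9 members. Inpp5d, on chromosome 1 (87620312-87720507, + strand), had 112 FPKM in WT and 16.4 FPKM in STAP-1 KO, 6.84-fold lower, with a log2 ratio of -2.77. Inppl1, on chromosome 7 (101822632-101838229, − strand), had 1.85 and 0.200 FPKM, 9.25-fold lower without pseudocount. Its log2 ratio was -2.70 with a pseudocount of 0.1 FPKM and -3.21 without, and it was -1.25 with a pseudocount of 1 FPKM, so that its place among the largest ratios depends on how low values are treated. Its exons share 95 bases with Phox2a and 1204 bases with Gm10602 on the other strand, of which Phox2a was listed at 0 in both libraries and Gm10602 was not among the symbols. Inpp5d was the main SHIP gene in both libraries, 60.7-fold above Inppl1 in WT and 82.1-fold in STAP-1 KO. The phosphatase sum was 0.586 of the catalytic sum in WT and 0.334 in STAP-1 KO. Pik3cd and Inpp5d were at similar levels in WT, with a ratio of 1.15, and this ratio was 1.94 in STAP-1 KO.

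The depth behind these values was estimated from FPKM, transcript length and effective depth. Inpp5d rested on about 3967 reads in WT and 813 in STAP-1 KO, and Pik3cd on 4536 and 1571. The 95% exact binomial interval of the fold difference, which covers counting error only, was 6.34 to 7.38 for Inpp5d, 4.81 to 5.84 for Pik3cg and 3.82 to 4.29 for Pik3cd. These 3 intervals did not overlap. The intervals of Pik3ca (1.74 to 2.26), Pik3cb (1.86 to 2.50) and Pik3r1 (1.85 to 2.33) overlapped and held the 2-fold cut-off, so that the call of any of them was not settled at this depth. Inppl1 had about 66 and 10 reads and an interval of 4.73 to 20.2, which held the ratio of Inpp5d. Pik3r6 had about 55 and 31 reads and an interval of 1.57 to 3.99, which also held the cut-off. Pik3r5, at 84 and 114 reads, had an interval of 0.769 to 1.38 that held a ratio of 1. All levels were above those of 3 reads in the same library. The intervals leave out variation between mice, sorts and amplifications.

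Transcript length was then taken into account, since the ratio of the libraries varied with it across the transcriptome. Over the 10862 genes of known length that averaged 1 FPKM or more, the Spearman correlation of log2 ratio and longest transcript was -0.37, a description across genes, which are not independent replicates. In 20 bins of length the median log2 ratio went from 0.48 for transcripts around 743 bases to -1.0 around 9085 bases, and the share of genes at least 2-fold lower from 15.0% to 51.7%. For each member the median log2 ratio of the 500 genes nearest in length was subtracted.

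With the longest transcript as the length, this comparison set some members apart from genes of like length and others not. The side of a 2-fold difference on which Pik3r1, Pik3r6 and Inppl1 fell depended on the length measure or the pseudocount. Pik3ca, at 8917 bases, had a log2 ratio of -0.97, which was 0.03 above the median of genes of like length. Pik3r1, at 7113 bases, had -1.04 against -0.94, a difference of -0.10, and Pik3cb, at 6478 bases, -1.09 against -0.77, a difference of -0.32. The ratios of these widely expressed genes were therefore near the middle of genes of their length, of which 47.6%, 54.8% and 62.4%, respectively, had a higher ratio. With the median length of coding transcripts in place of the longest transcript, the difference of Pik3cb was -0.76. Pik3r5, at 4370 bases, lay 0.21 above the median of its length.

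The other members lay below genes of like length. Pik3cd (4921 bases) was lower by a further log2 difference of -1.50, and Pik3cg (5871 bases) by -1.81, with 88.6% and 92.6% of genes of like length having a higher ratio. Inpp5d (4937 bases) and Inppl1 (4995 bases) were at -2.25 and -2.17, and 94.0% and 94.4% of the like-length genes had a higher ratio. Pik3r6, with the shortest transcript at 3237 bases, was at -1.23, as its like-length median was 0.01. Altogether 7 of the 9 members lay below the median of their length and 5 lay more than 2-fold below it, namely Pik3cd, Pik3cg, Pik3r6, Inpp5d and Inppl1, as did 18.5% of the 10862 genes of known length. With a pseudocount of 1 FPKM, Inppl1 (-0.78) and Pik3r6 (-0.80) were less than 2-fold below it, as was Pik3r6 (-0.96) with the median length of coding transcripts. By role, the median difference was -0.91 for the catalytic, -0.10 for the regulatory and -2.21 for the phosphatase genes. The regulatory value is that of Pik3r1 and depends on the length measure. With the median length of coding transcripts, the middle regulatory gene was Pik3r6 at -0.96, between Pik3r1 (-1.20) and Pik3r5 (0.61). The catalytic genes were then at 0.03 (Pik3ca), -0.76 (Pik3cb), -1.57 (Pik3cd) and -1.73 (Pik3cg), so that both roles overlapped.

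**Figure D3:**
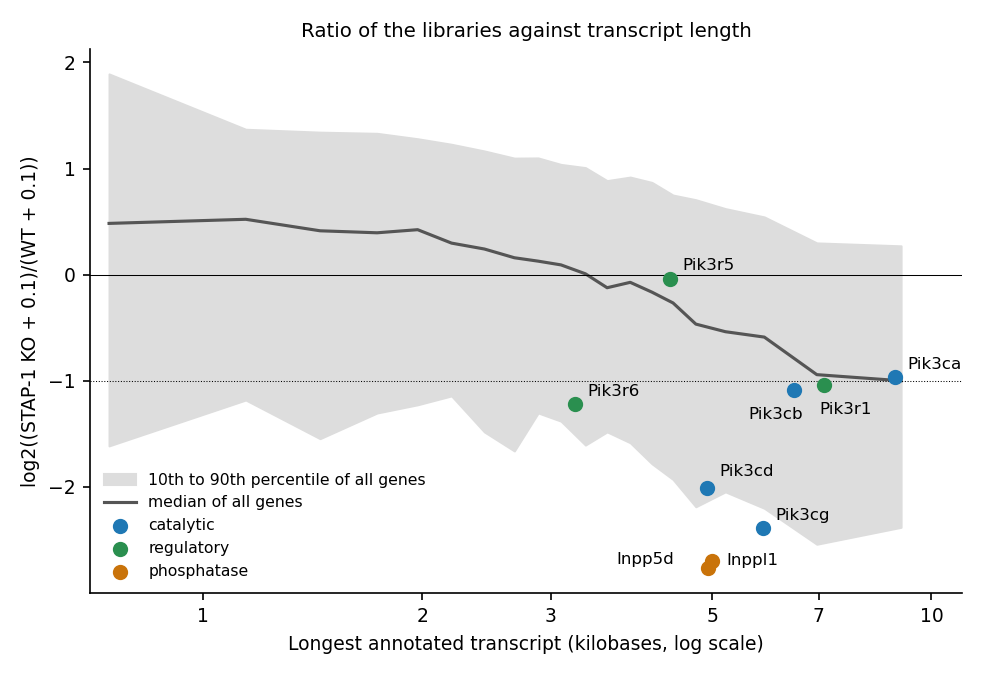
Log2 ratio (STAP-1 KO over WT, pseudocount 0.1 FPKM) against the longest annotated transcript (kilobases, log scale), with the 9 members as points coloured by role, the median of all genes in 20 bins of length as a line, their 10th to 90th percentile in grey and the 2-fold cut-off as a dotted line. Pik3ca and Pik3r1 sit close to the line, while Pik3cg, Inpp5d and Inppl1 lie at or below the lower edge of the grey band.

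**Figure D4:**
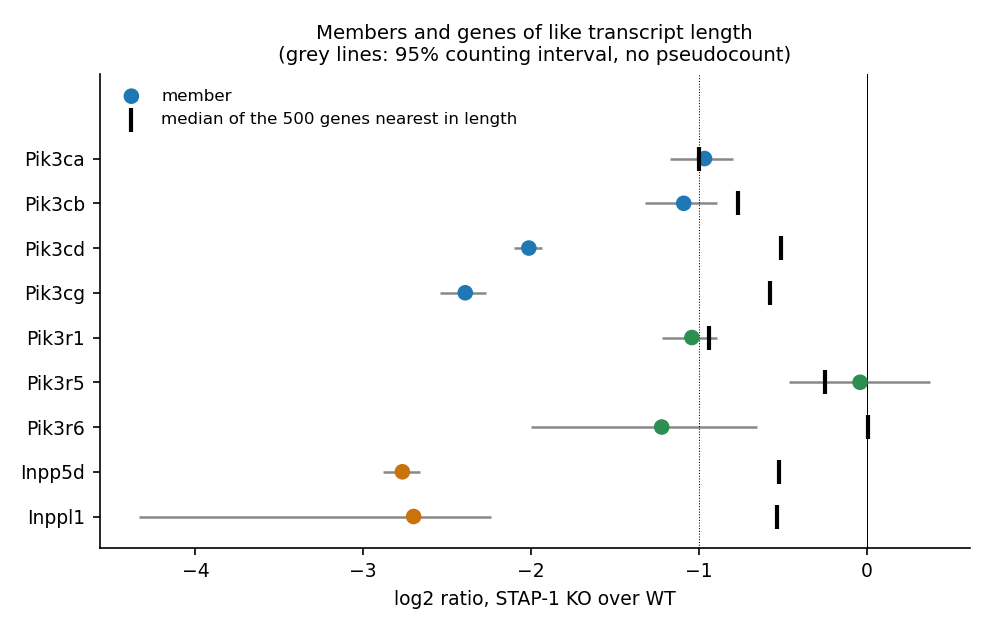
Log2 ratio (pseudocount 0.1 FPKM) of each member (points, blue for catalytic, green for regulatory and orange for phosphatase genes) beside the median of the 500 genes nearest in length (black ticks). Grey lines are 95% counting intervals of the ratio without pseudocount, which is why the interval of Inppl1 reaches further down than up, and the intervals of Pik3ca and Pik3r1 hold their ticks.

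The length assigned to a gene matters most for Pik3r1, whose annotated RefSeq forms go from 7113 down to 2923 bases. At the longest form it rested on about 766 and 517 reads and at the shortest on 301 and 203. With the median length of its coding transcripts (1812 bases) its difference from genes of like length was -1.20 in place of -0.10, and it then lay more than 2-fold below them. Which form these cells used cannot be read from gene-level values.

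The other genes of the pathway were described as lists written with earlier results of these data known. Of the other PI3K family genes, 2 of 8 compared were at least 2-fold lower and 1 was higher, near the shares of 22.9% and 12.3% over all genes. Pik3r4, a regulatory subunit of the class III enzyme, had 10.2 and 4.37 FPKM in WT and STAP-1 KO, and its catalytic partner Pik3c3 23.9 and 21.1 FPKM. Pik3r2, which encodes p85β, had 19.4 and 15.5 FPKM, and Pik3ip1, an inhibitor of the p110 subunits, 37.9 and 22.7 FPKM. Pik3r2 was thus above Pik3r1 in both libraries. With it counted, the ratio of class IA catalytic to p85 FPKM was 4.29 in WT and 1.79 in STAP-1 KO. The longest Pik3r2 transcript (3165 bases) is shorter than those of the catalytic genes (4921 to 8917 bases). The part of length in this ratio was not tested. The median log2 ratio of this list was -0.32 over the 5 genes that averaged 1 FPKM or more, and -0.43 less the median of genes of like length, with 4 of the 5 below that median. Below that level, and named after their values were seen, Pik3c2a (0.902 and 0.451 FPKM) was the other lower gene and Pik3c2b (0.104 and 0.322 FPKM) the higher one.

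Of the other phosphoinositide phosphatases, 11 of 19 compared were lower and 0 higher, against 22.9% and 12.3% of all genes, with a median log2 ratio of -1.11 over 18 genes. Inpp4b, which acts on the product of the SHIP enzymes, had 77.5 FPKM in WT and 7.44 FPKM in STAP-1 KO. The synaptojanin genes Synj1 (10.7 and 1.80 FPKM) and Synj2 (5.07 and 0.536 FPKM) and the myotubularin gene Mtmr3 (31.8 and 8.39 FPKM) were also lower. Less the median of genes of like length, the list had a median of -0.65, and 13 of 18 genes were below that median.

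Of the phosphoinositide kinases, most of which act in the supply of PIP2, 7 of 11 were lower and 0 higher, against the same 22.9% and 12.3% of all genes, with a median log2 ratio of -1.41 over 10 genes. Pi4ka had 29.5 and 3.93 FPKM in WT and STAP-1 KO and Pip5k1c 48.7 FPKM in WT, 3.75-fold above STAP-1 KO. Pip5k1b had 27.5 and 5.07 FPKM and Pip4k2c 21.5 and 4.13 FPKM. Genes that make PIP2 were thus among those lower together with the PI3K subunits. Less the like-length median, the list was at -1.10.

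Downstream of PIP3, 11 of 25 effectors compared were lower and 1, Sgk3 (10.3 and 21.6 FPKM), was higher. Of all genes 22.9% were lower and 12.3% higher, and of those in the members' length range 29.6% and 6.85%. Prex1, a PIP3-dependent activator of Rac, had 33.4 and 2.96 FPKM in WT and STAP-1 KO, and Arap3, which binds PIP3, 17.2 and 3.27 FPKM. Tsc2, which restrains mTORC1, had 31.0 and 5.85 FPKM and Sgk1, a kinase related to AKT, 131 and 29.1 FPKM. Akt1 itself had 148 and 135 FPKM, a log2 ratio of -0.13. The median of the list was -0.69 over 23 genes and -0.27 after the like-length median was subtracted. Sgk3 is named here after its value was seen. Of the adaptors upstream of PI3K, 6 of 16 were lower, nearer to the 29.6% than to the 22.9%, and 0 were higher. Their medians were -0.57 and -0.34 over 15 genes. Gab2, which links BCR-ABL to p85, had 52.3 and 3.66 FPKM, and Irs2, an insulin receptor substrate, 57.7 and 8.96 FPKM. Dok3 had 59.9 and 12.1 FPKM, and Cblb, a ubiquitin ligase, 6.98 and 1.69 FPKM.

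**Figure D5:**
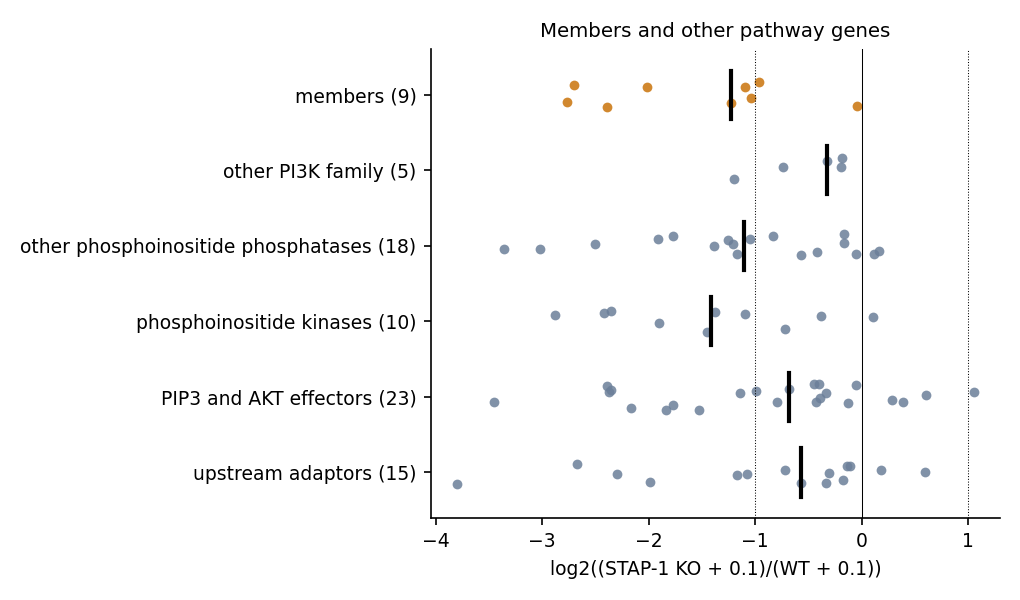
Log2 ratio (STAP-1 KO over WT, pseudocount 0.1 FPKM) of single genes (points) in the 9 members and the 5 pathway lists, with the number of genes averaging 1 FPKM or more in parentheses, the list median as a black bar and the 2-fold cut-offs as dotted lines. The members' median of -1.22 is near those of the other phosphatases (-1.11) and the phosphoinositide kinases (-1.41), with single genes spread over both sides of the lower cut-off.

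Markers of some other cell types also differed between the libraries, beside all of these gene groups. Each count below stands against 22.9% of all genes at least 2-fold lower and 12.3% at least 2-fold higher. The 9 mast cell and basophil markers were each at least 2-fold lower in STAP-1 KO, and their summed level was 51391 FPKM in WT and 5220 FPKM in STAP-1 KO, with none at 0. The mast cell proteases Cpa3 (17984 and 1775 FPKM) and Cma1 (13924 and 1168 FPKM) held most of it. Of the neutrophil granule markers 4 of 8 were lower and 4 higher, with sums of 610 and 4182 FPKM. The higher ones were primary granule genes and held most of both sums. Mpo (248 and 1973 FPKM) and Ctsg (104 and 841 FPKM) were highest by the mean of both libraries. Elane (112 and 823 FPKM) and Prtn3 (57.4 and 525 FPKM) were the others. The lower ones were secondary and tertiary granule genes. These were Ngp (52.3 and 9.72 FPKM), Camp (18.8 and 5.13 FPKM), Ltf (13.7 and 3.69 FPKM) and Retnlg (3.34 and 0.717 FPKM). All but Mpo and Ctsg are named after their values were seen. Monocyte and macrophage markers had sums of 227 and 239 FPKM, with 3 lower and 3 higher of 7 compared, among them Cd68 (95.7 and 26.3 FPKM) and Lyz2 (35.2 and 92.0 FPKM). Erythroid and megakaryocyte markers had 1838 and 981 FPKM, with 2 lower and 1 higher of 8 compared, near the shares over all genes. By the mean of both libraries Hbb-bs (1460 and 674 FPKM) and Klf1 (103 and 108 FPKM) were highest in that list. In WT, Itga2b (123 FPKM, 3.79-fold above STAP-1 KO) was above Klf1, and it is named after its values were seen. Lymphoid markers stayed low, at sums of 16.0 and 20.7 FPKM, with 2 lower and 1 higher of 4 compared. Il7r had 11.6 and 1.56 FPKM and Cd79b 3.10 and 17.8 FPKM, and the B cell genes Pax5 and Ebf1, named for that after their values were seen, were listed at 0 in both libraries. Mast cells are known to express Pik3cd, Pik3cg and Inpp5d. The part of the mast cell markers, of the lower Kit level and of transcript length in the members' ratios was not tested, except as the like-length comparison gives it for length.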

How the data were processed

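RNA-seq was performed on 1 WT and 1 STAP-1 KO library of sorted LSCs, which were grouped by the sample labels. cDNA was made with a low-input SMART-Seq v4 kit, libraries were prepared with Nextera XT and reads had 75 bases. The authors deposited FPKM values from Cuffnorm, after mapping to mm10 with TopHat2 (version 2.0.13) and Bowtie2 (2.2.3). The submitters' processing notes also name Cufflinks (2.2.1) and SAMtools (0.1.19). The gene annotation is not given in the sources used here. FPKM spread reads of overlapping isoforms over a gene and depend on the assumed length, and amplification from few cells can lose the ends of long transcripts. How far this applied here was not tested.

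Values were analysed with Python 3.11.15, numpy 2.4.6, pandas 2.3.3, scipy 1.17.1 and matplotlib 3.10.9. Lengths and coordinates came from GENCODE M21 (GRCm38), in which 20911 symbols matched as written and 1914 through an older symbol, while 459 did not match. Effective depth was taken from the FPKM steps of genes with 1 transcript, with 209 bases taken off each length. With it, whole reads to within 0.01 came out for 44.7% of 302 low values in WT and 46.8% of 363 in STAP-1 KO. Since reads could not be recovered for nearly all genes, no count test was run. Reads are estimates and can include a scaling by Cuffnorm.

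Members and lists were chosen with earlier results of these data known. The text names all members, Stap1, Kit, Ly6a and Cd34, up to 4 genes per pathway list with the largest absolute log2 ratio at a pseudocount of 1 FPKM among those with a mean of at least 1 FPKM, Akt1, and the 2 genes of each marker list with the highest mean. Some genes are not reported here. The steps were tested on simulated data. Alternatives changed the cut-off, the 0.1 FPKM floor, the pseudocount, the scaling and the length measure.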

Additional observations from a re-analysis of the deposited data

How the results depend on the processing

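Of the 9 members, 8 were lower at a cut-off of 1.5-fold (32.8% of all genes) and 4 at 4-fold (Pik3cd, Pik3cg, Inpp5d and Inppl1; 8.56% of all genes), where 7 were at 2-fold. With a floor of 1 FPKM, 5 of the 7 members compared were lower, and 19.3% of all genes. Other scalings of the libraries (by median ratio, upper quartile and trimmed mean) moved all ratios by at most 0.10 on the log2 scale and gave 7, 7 and 6 members, Pik3r1 being lost under the trimmed mean. With a pseudocount of 1 FPKM the regulatory median was -0.79 and the phosphatase median -1.97. Less the median of genes of like length, the medians were -0.91 for catalytic, -0.10 for regulatory, -0.65 for other phosphatase, -1.10 for phosphoinositide kinase, -0.27 for effector, -0.34 for adaptor and -1.03 for phospholipase C genes. With RefSeq transcript lengths, a choice added after seeing the data, they were -0.77 for catalytic, -0.032 for regulatory and -2.05 for phosphatase members. With the median length of coding transcripts, the middle regulatory value was -0.96 (Pik3r6), within the span of the catalytic values from -1.73 (Pik3cg) to 0.03 (Pik3ca). The effector median was -0.41 at a mean of at least 5 FPKM. No value past 2-fold changed direction under these choices, while the difference of Pik3ca from genes of like length went from -0.07 to 0.05. Of the single-member values under alternatives, 94 moved by less than 0.5 of the width of the counting interval and 23 by more. The difference from genes of like length ranged from -2.67 to -0.78 for Inppl1 and from -1.31 to -0.80 for Pik3r6. It ranged from -1.20 to -0.00 for Pik3r1, from -0.76 to -0.20 for Pik3cb and from 0.17 to 0.61 for Pik3r5. The ranges were -2.36 to -2.10 for Inpp5d, -1.86 to -1.73 for Pik3cg and -1.60 to -1.35 for Pik3cd. No paired analysis was possible because there was 1 library per genotype, and for the same reason no library could be left out. Depth limits Pik3r5, Pik3r6 and Inppl1 most.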

Other observations

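Phospholipase C uses the same PIP2 as PI3K and splits it to diacylglycerol and inositol trisphosphate. The 21 genes of this branch were chosen after the data had been seen. Of 20 compared, 14 were at least 2-fold lower in STAP-1 KO and 2 were higher, against 22.9% and 12.3% of all genes, with a median log2 ratio of -1.30 over the 16 genes that averaged 1 FPKM or more, and a median of -1.03 less the median of genes of like length. Plcg1, a phospholipase activated by tyrosine kinases, had 34.2 FPKM in WT and 4.02 FPKM in STAP-1 KO, whereas its relative Plcg2 had 32.5 and 29.2 FPKM. The protein kinase C gene Prkcb had 80.3 and 5.16 FPKM. The inositol trisphosphate receptor genes Itpr2 (23.5 and 2.34 FPKM) and Itpr3 (5.66 and 0.283 FPKM) were also lower. The genes that were higher were Rasgrp2 (5.24 and 25.6 FPKM), an exchange factor, and Plcd3 (0.189 and 1.22 FPKM). Plcg2, Rasgrp2 and Plcd3 were named after their values were seen.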
